A study of Mus musculus with 12 samples.

Results

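The mitochondrial ribosomal proteins were taken as the protein-coding rows of the deposited table whose gene name is Mrpl or Mrps followed by a digit, which gave 78 of 54532 rows. By the usual assignment 51 belong to the large subunit and 26 to the small subunit. Mrps30 and Mrps18a, named for the small subunit, sit in the large one, and Mrps36, now known as a component of the 2-oxoglutarate dehydrogenase complex, was placed in neither. Whole-liver RNA was sequenced from 12 male mice in 4 groups of 3, all of which carried a floxed Slc25a34 allele (loxP sites in the promoter and intron 1) and all of which were injected with virus at 2 months of age. Slc-HKO mice received AAV8-TBG-Cre, in which the hepatocyte promoter TBG drives Cre (over 95% of hepatocytes are targeted, per the labels), and WT control mice received AAV8-TBG-GFP. After 1 month on chow, each genotype stayed on chow or was given a fast-food diet (FFD) for 2 months, and livers were taken after a 16 h fast. Nothing in the labels gives litters or injection days, so p-values measure the spread between these mice. The deposited column headers number the FFD libraries in a run of their own, before all chow libraries. WT control chow replicate 3 is numbered apart from the other chow libraries. What these numbers stand for is not given, so diet cannot be told apart from any difference that goes with them.

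Mitochondria translate the few mRNAs of their own genome, which encode core subunits of the respiratory chain and ATP synthase, on ribosomes that are separate from those of the cytosol. The RNAs of the mitochondrial ribosome come from mitochondrial DNA, while all of its proteins are encoded in the nucleus, made in the cytosol and imported. Some of these proteins have counterparts in bacterial ribosomes and others are found only in mitochondria. In liver, a tissue rich in mitochondria, the products of this ribosome are needed for oxidative phosphorylation.

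The promoters below belong to the 7 genes whose diet difference, averaged over both genotypes, passed the test under every alternative processing tried. They were chosen after their values were seen. Each runs 5′ to 3′ on the gene's strand from 250 bases before the RefSeq start to 30 bases after it (RefSeq, build GRCm38.p6), with motif matches in capitals.
The first 4 genes were higher on FFD and the last 3 were lower.
Mrpl45, chr11:97315466-97315745, plus strand, capitals mark 3 NRF1 matches.
Mrpl45: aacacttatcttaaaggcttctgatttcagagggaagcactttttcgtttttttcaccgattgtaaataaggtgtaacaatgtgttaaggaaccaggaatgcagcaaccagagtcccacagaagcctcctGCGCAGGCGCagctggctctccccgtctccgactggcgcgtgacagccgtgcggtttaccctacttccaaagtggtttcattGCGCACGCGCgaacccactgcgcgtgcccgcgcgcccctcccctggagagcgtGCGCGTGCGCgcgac
Mrpl1, chr5:96209865-96210144, plus strand, none of the 5 motifs matched.
Mrpl1: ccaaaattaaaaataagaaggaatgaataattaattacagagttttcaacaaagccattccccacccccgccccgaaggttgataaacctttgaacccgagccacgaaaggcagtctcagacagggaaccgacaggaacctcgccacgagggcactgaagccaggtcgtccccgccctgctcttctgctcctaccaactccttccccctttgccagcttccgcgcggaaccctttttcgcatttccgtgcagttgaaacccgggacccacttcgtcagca
Mrpl14, chr17:45686099-45686378, plus strand, capitals mark an NRF1 match.
Mrpl14: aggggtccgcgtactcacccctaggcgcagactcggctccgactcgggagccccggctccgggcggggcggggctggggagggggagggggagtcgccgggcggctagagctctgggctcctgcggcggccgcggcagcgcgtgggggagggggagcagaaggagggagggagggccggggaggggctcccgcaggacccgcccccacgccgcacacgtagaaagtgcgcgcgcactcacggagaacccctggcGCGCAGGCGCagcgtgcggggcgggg
Mrps18a, chr17:46110754-46111033, plus strand, capitals mark a CCAAT box, an ETS match and a YY1 match, in that order.
Mrps18a: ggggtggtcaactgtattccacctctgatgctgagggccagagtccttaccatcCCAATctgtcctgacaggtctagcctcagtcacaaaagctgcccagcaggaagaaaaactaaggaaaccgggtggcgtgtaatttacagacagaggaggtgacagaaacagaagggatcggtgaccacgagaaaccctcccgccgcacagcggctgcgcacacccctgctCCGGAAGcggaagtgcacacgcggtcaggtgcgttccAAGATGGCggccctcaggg
Mrps22, chr9:98601650-98601929, minus strand, capitals mark an ETS match.
Mrps22: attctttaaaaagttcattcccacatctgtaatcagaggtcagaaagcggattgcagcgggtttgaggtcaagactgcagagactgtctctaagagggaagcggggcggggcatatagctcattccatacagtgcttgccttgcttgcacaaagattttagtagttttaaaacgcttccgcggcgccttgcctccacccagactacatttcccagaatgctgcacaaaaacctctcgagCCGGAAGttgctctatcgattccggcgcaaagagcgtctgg
Mrps10, chr17:47368947-47369226, plus strand, capitals mark a CCAAT box on the other strand.
Mrps10: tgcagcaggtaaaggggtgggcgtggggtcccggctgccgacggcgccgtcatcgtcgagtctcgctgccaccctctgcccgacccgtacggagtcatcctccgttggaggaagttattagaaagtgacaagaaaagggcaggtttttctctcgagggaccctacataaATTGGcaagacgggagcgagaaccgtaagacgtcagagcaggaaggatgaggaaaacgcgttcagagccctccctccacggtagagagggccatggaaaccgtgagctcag
Mrpl20, chr4:155802628-155802907, plus strand, capitals mark an E-box.
Mrpl20: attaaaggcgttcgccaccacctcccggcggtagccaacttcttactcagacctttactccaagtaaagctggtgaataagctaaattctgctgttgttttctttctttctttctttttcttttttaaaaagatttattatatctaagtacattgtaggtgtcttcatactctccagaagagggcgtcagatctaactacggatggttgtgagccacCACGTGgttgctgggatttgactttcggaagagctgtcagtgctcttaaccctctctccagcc

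Over the whole group, promoters were compared in windows from 250 bases before to 50 bases after the start. RefSeq had 75 windows for 69 of the 78 genes. Motifs were read on both strands as NRF1 (GCGCA and GCGC with any 1 base between), the ETS family that includes GABPA (CCGGAAG), YY1 (AANATGGC), the CCAAT box (CCAAT) and the E-box (CACGTG), and none of these contains another. A YY1 match was in 28% of the mitochondrial ribosomal protein windows, in 8.07% of the 12832 windows of protein-coding genes tested here and in 6.05% of all 32851 windows. The ETS share was 34.7%, against 16.5% and 8.86%. The NRF1 share was 17.3%, against 9.45% and 4.6%. The CCAAT share was 40.0%, against 37.5% and 37.4%, and the E-box share was 9.33%, against 9.66% and 7.15%. The first 3 shares were higher than in either background, and the last 2 were close to it. The median GC content was 58.7% in these windows and 60.3% in those of the tested genes. These are matches of letters, described without a test, and do not show that a factor binds.

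**Figure D1:**
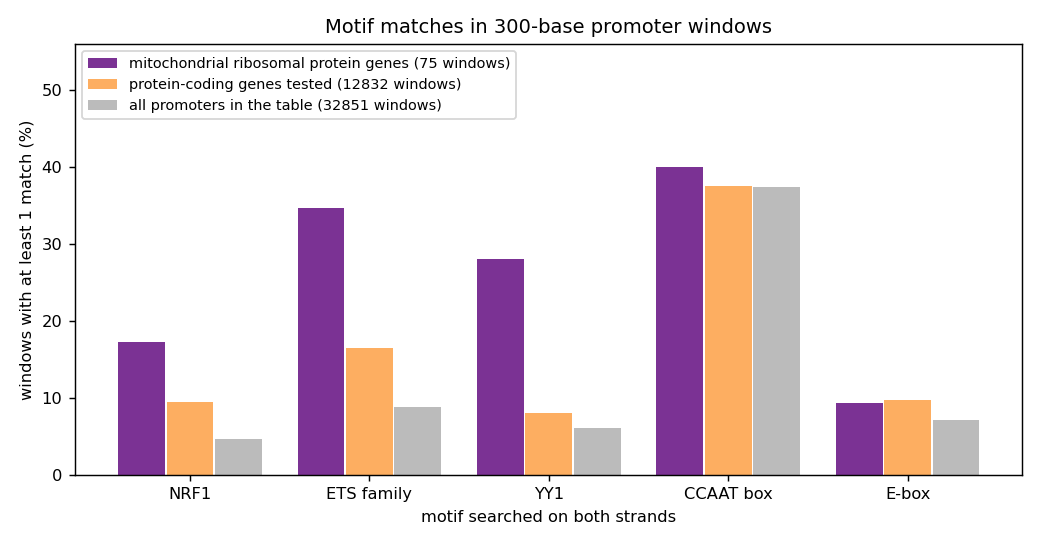
Share of promoter windows (percent) with at least 1 match to each of 5 motifs, for mitochondrial ribosomal protein genes, protein-coding genes tested and all promoters in the RefSeq table. The YY1 bar is at 28% for the mitochondrial ribosomal protein genes and at 8.07% for the tested genes, while the CCAAT and E-box bars are close in height.

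The genes lie on 17 chromosomes, with 11 on chromosome 11. In GENCODE M21, 33 of the 78 (42.3%) had a protein-coding neighbour on the other strand starting within 1000 bases of their own start, head to head. The same held for 15.6% of the 12698 tested protein-coding genes found in that annotation. Mrps11 and Mrpl46 have starts 412 bases apart and overlap by 173 exon bases. Mrpl36 and Ndufs6, a subunit of respiratory complex I, have starts 29 bases apart and overlap by 30 exon bases. The gene start of Mrpl36 used here, chr13:73328513, differs from the RefSeq start behind its promoter window, chr13:73330759-73331058. Exon bases shared with another gene made up over 50% of the total in 3 genes, which were Mrps34 (77.8%, with Mapk8ip3 and Nme3), Mrps25 (69.8%, with Nr2c2) and Mrpl53 (88.0%, with Gm42688 and Ccdc142os). The share on the opposite strand was 63.4% for Mrps34, 69.8% for Mrps25 and 1.9% for Mrpl53, whose overlap is mostly on the same strand. The strand setting of the counting is not given in the sources used here. Reads from overlapping genes of opposite strands may therefore be mixed into, or lost from, the counts of Mrps34 and Mrps25.

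Library depth ranged from 12842187 to 24332663 counts, and mitochondrial ribosomal proteins took 0.192% to 0.208% of them. Of the 78 genes, 77 passed the filter on low counts, with 53 to 1983 counts per library. Mrpl53 was listed at 0 in all 12 libraries, below a floor of 3 counts (0.123 to 0.234 CPM across libraries), and the part of its shared exons in this was not tested. The targeted gene, Slc25a34, had 88 to 116 counts in the WT control chow libraries and 4 to 13 in Slc-HKO chow, and on FFD 30 to 92 and 4 to 18. It was 11.2-fold lower in Slc-HKO on chow (log2 fold change -3.48, adjusted p = 0.024 in the quasi-likelihood test of edgeR) and 7.38-fold lower on FFD (adjusted p = 0.0709). The chow call was lost without WT control chow replicate 1, Slc-HKO chow replicate 1 or 3, or Slc-HKO FFD replicate 1, with adjusted p between 0.059 and 0.231. Hepatocyte markers dominated every library, at a summed 55738 to 69844 CPM (counts scaled to library depth) over 6 genes, and 4 adipose or muscle markers summed to at most 0.2 CPM. In bulk tissue, fewer cells of a type and less RNA per cell cannot be told apart.

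Mitochondrial ribosomal protein mRNAs were of middling abundance in liver. Their median level per length was 9.06 RPKM, a read count scaled to library depth and gene length, above 74.1% of all genes tested, and the quartiles were 4.94 and 19.3 RPKM. Cytosolic ribosomal proteins had a median of 83.2 RPKM and the subunits of the respiratory chain and ATP synthase one of 57.5 RPKM. The highest levels were those of Mrpl34 (52.1 RPKM), Mrpl14 (48.3 RPKM), Mrpl12 (39.2 RPKM), a stalk protein, and Mrps21 (36.2 RPKM). The lowest with reads were Mrpl33 (1.68 RPKM), Mrps30 (1.66 RPKM) and Mrps25 (1.29 RPKM). Mrps25 shares most of its exon bases with Nr2c2, and the part of this in its level was not tested. The median was 11.3 RPKM in the large subunit and 7.51 RPKM in the small one.
These levels depend on the length used, because the deposited length equals the union of all exons in GENCODE M21 for 73 of the 78 genes, with a median of 2213.5 bases against 1302 for the principal transcript. By the principal transcript the highest genes were Mrpl52 (77.3 RPKM, from 29.1), Mrpl14 (71.0 RPKM) and Mrps21 (54.8 RPKM), and Mrpl34 ranked 4 and Mrpl12 ranked 6. Mrpl33 stood at 25.7 RPKM, no longer among the lowest, and the subunit medians were 21.4 and 14.3 RPKM. Across the 77 genes with reads the rank correlation of both scales was 0.771, given as a description.

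**Figure D2:**
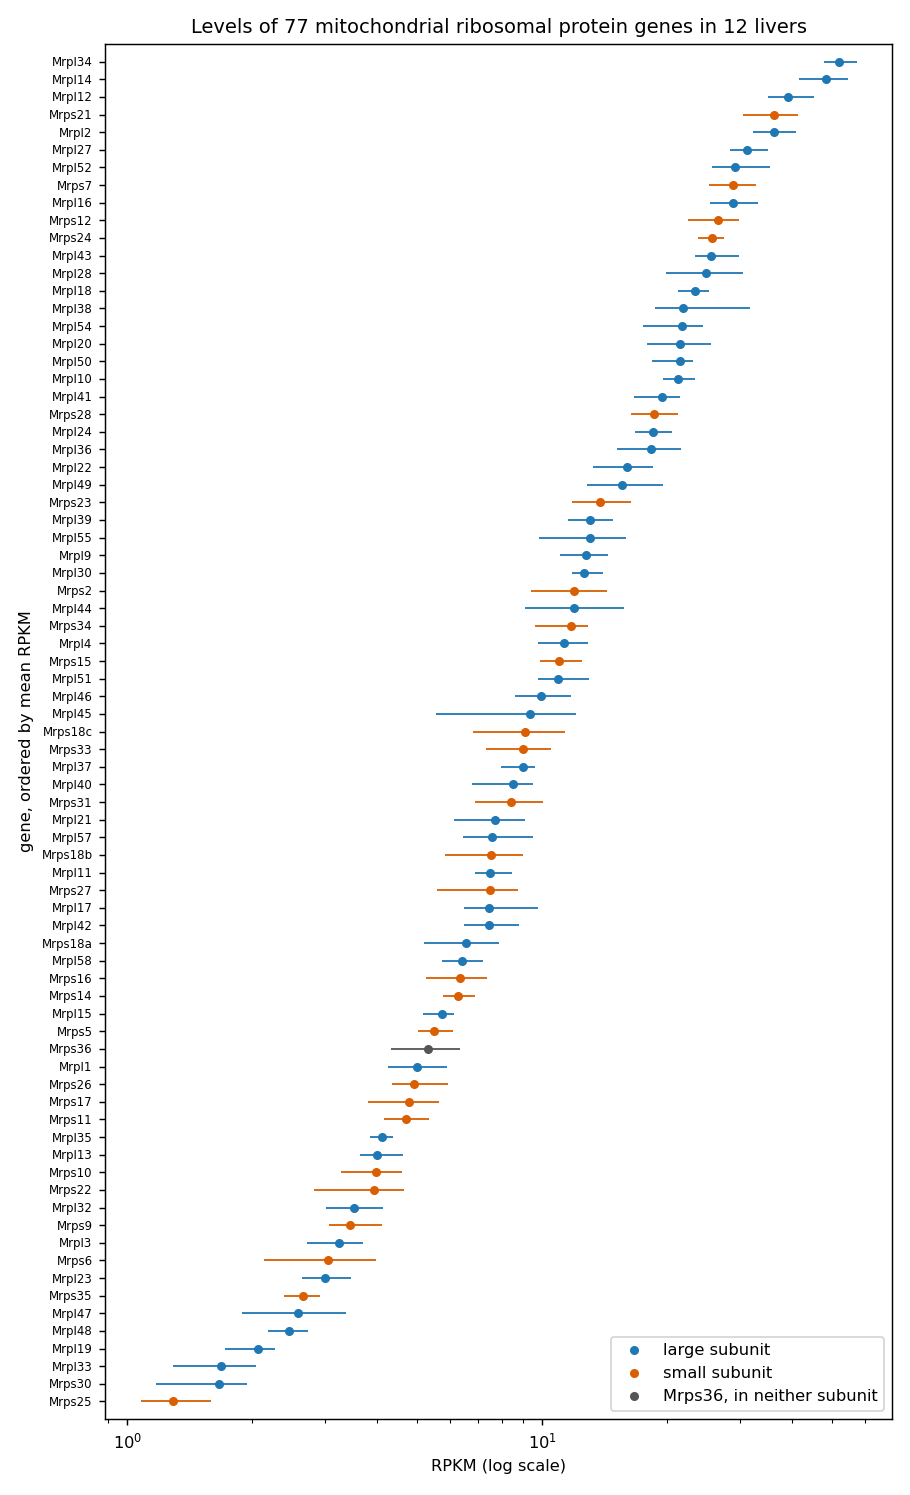
Level of each gene with reads in RPKM by the deposited length (log scale), with a point at the mean of 12 livers and a line from the lowest to the highest library. Levels run from 1.29 RPKM for Mrps25 to 52.1 RPKM for Mrpl34, with both subunits spread over the range.

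The mRNAs varied little between mice. The highest library was under 1.5 times the lowest in 60 of the 77 genes, with a median ratio of 1.36. The ratio was lowest for Mrpl35 (1.13) and highest for Mrpl45 (2.18), a large-subunit protein near the peptide exit that helps hold the ribosome to the inner membrane. The median biological coefficient of variation was 0.0917, against 0.133 over all genes tested and 0.0890 for cytosolic ribosomal proteins. Pairs of these genes were weakly correlated across mice, with a median of 0.11 (0.15 after removing group means). Pairs of cytosolic ribosomal proteins had a median of 0.87 (0.47) and pairs of respiratory chain subunits 0.36 (0.47). Counting noise lowers such correlations and is larger at low counts, and the median levels were unlike, at 9.06, 83.2 and 57.5 RPKM. The part of counting noise in the gap was not tested. These correlations share the 12 libraries and are descriptions. Summed over the group, levels were 2019 ± 53.1 CPM in WT control chow, 2005 ± 74.5 CPM in Slc-HKO chow, 2055 ± 35.3 CPM in WT control FFD and 1995 ± 78.0 CPM in Slc-HKO FFD (SD, n = 3), and these ranges overlapped.

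Loss of Slc25a34 was not accompanied by a called change in any mitochondrial ribosomal protein mRNA on either diet. On chow 0 of 77 passed an adjusted p of 0.05 by edgeR, where 0.021% of all 14277 genes passed, and 1 had an unadjusted p under 0.05, as did 11.8% of all genes. On FFD 0 of 77 passed, where 0.007% of all genes passed, and 4 had an unadjusted p under 0.05, as did 9.34% of all genes. DESeq2 and limma-voom also called 0 on each diet. The median log2 fold change was -0.01 on chow and -0.05 on FFD, beside 0.00 over all genes on each diet. The 95% interval of the difference lay within 1.5-fold in either direction for 76 of 77 genes on chow (98.7%) and 75 on FFD (97.4%), compared with 54.5% and 56.1% of all genes. On each diet it did so for 96.2% of cytosolic ribosomal proteins and 93.8% of respiratory chain and ATP synthase subunits, so narrow intervals were not particular to this group.

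Mrpl45 had the smallest p on chow. It stood at 22.5, 23.7 and 22.8 CPM in WT control and at 14.4, 17.9 and 20.7 CPM in Slc-HKO. All 3 Slc-HKO libraries lay below the WT control libraries, and they were also farther apart. The log2 difference was -0.38 (SE 0.118, adjusted p = 0.261 by edgeR), which did not pass the test.
On FFD the smallest p was that of Mrpl49, a large-subunit protein. It stood at 29.8, 33.6 and 29.2 CPM in WT control and at 24.6, 24.7 and 27.2 CPM in Slc-HKO, without overlap. The log2 difference was -0.28 (SE 0.0924, adjusted p = 0.353 by edgeR).
Mrpl33, a small protein of the large subunit, followed, with 13.8, 12.4 and 11.8 CPM against 10.2, 10.2 and 9.4 CPM. The Slc-HKO libraries were again below all WT control libraries, with a log2 difference of -0.34 (adjusted p = 0.392 by edgeR).
In 12 of the 77 genes the Slc-HKO FFD libraries all lay below the WT control FFD libraries (15.6%) and in 0 above, where 8.37% of all genes lay wholly below and 8.08% above, 16.4% in all. The fitted difference was negative in 55 of the 77 genes on FFD and in 42 on chow, against 7191 and 7087 of all 14277 genes. On chow 5 genes lay wholly below and 1 above, where 7.39% and 6.86% of all genes did, 14.2% in all. With the genotypes compared over both diets at once, a comparison added after the data were seen, 0 of 77 passed, where 0.035% of all genes did (0.014% higher and 0.021% lower), and 3 had an unadjusted p under 0.05 (Mrpl49, Mrpl33 and Mrpl11), against 12.2% of all genes. DESeq2 and limma-voom called 0 there as well, and 1 gene passed without Slc-HKO chow replicate 2.

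Diet left most of these mRNAs within a narrow band and moved a few in opposite directions. In WT control livers 2 of 77 were called higher on FFD and 0 lower, where 14.9% of all genes were called (8.24% higher and 6.61% lower). In Slc-HKO livers 2 were higher and 3 lower, where 13.6% of all genes were called (7.46% higher and 6.12% lower). An unadjusted p under 0.05 was found in 12 genes in WT control and 14 in Slc-HKO livers, against 29% and 28.3% of all genes. The members' shares, 2.6% and 6.49%, were below those backgrounds. Median log2 differences were 0.03 in WT control and -0.03 in Slc-HKO livers, beside -0.01 over all genes in each. The 95% interval was within 1.5-fold for 72 genes (93.5%) in WT control and 71 (92.2%) in Slc-HKO, against 46.9% and 46.6% of all genes. The shares were 86.1% and 79.7% for cytosolic ribosomal proteins and 93.8% and 92.5% for respiratory chain and ATP synthase subunits. The FFD libraries lay wholly above the chow libraries in 16 genes and wholly below in 8 in WT control, where 16.7% of all genes lay above and 15.9% below (32.6% in all), and in Slc-HKO above in 8 and below in 11, where 17% lay above and 16.5% below (33.6% in all). Over all 4 comparisons of diet or genotype, 66 genes kept every interval within 1.5-fold.

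**Figure D3:**
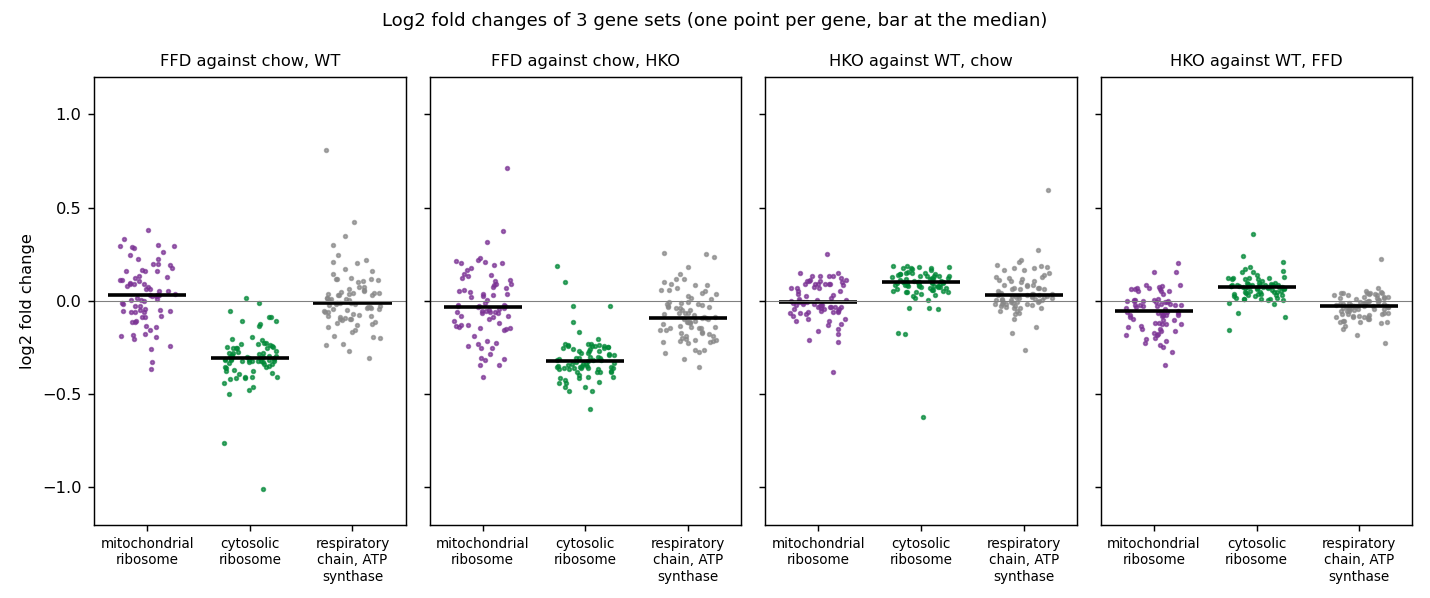
Log2 fold changes (vertical axis) of mitochondrial ribosomal proteins, cytosolic ribosomal proteins and respiratory chain and ATP synthase subunits in the 4 comparisons, 1 point per gene with a bar at the median; 4 points lie outside the axis at 1.2. On FFD the cytosolic ribosomal proteins sit below 0, with medians of -0.31 and -0.32, while the mitochondrial ones straddle 0.

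Beside them, the cytosolic ribosomal proteins fell on FFD: 54 of 79 were called lower in WT control livers and 57 in Slc-HKO, with 0 higher and medians of -0.31 and -0.32. Subunits of the respiratory chain and ATP synthase gave 3 higher and 2 lower of 80 in WT control, and 0 and 4 in Slc-HKO.
Markers of the cell types in liver were summed by diet. The 8 Kupffer cell and macrophage markers summed to 267 to 417 CPM in WT control chow and 465 to 528 CPM in WT control FFD, and to 332 to 362 CPM and 402 to 442 CPM in Slc-HKO. The 6 hepatocyte markers summed to 61681 to 69844 CPM in WT control chow and 55959 to 57546 CPM in WT control FFD, and to 57706 to 63098 CPM and 55738 to 60304 CPM in Slc-HKO, where they overlap. Of the hepatocyte markers 0 passed the test for diet in either genotype or in the average by edgeR, and of the Kupffer cell and macrophage markers 3 were called higher in WT control livers, 1 in Slc-HKO and 5 in the average. None of the latter was called lower, but Marco went the other way. Its mean was 26.7 CPM on chow and 19.2 CPM on FFD in WT control, and 14.5 and 5.54 CPM in Slc-HKO. The 6 lymphocyte markers summed to 14.5 to 15.9 CPM in WT control chow and 20.6 to 26.4 CPM in WT control FFD, and to 14.0 to 17.4 CPM and 15.8 to 19.9 CPM in Slc-HKO. The 6 cholangiocyte markers summed to 35.9 to 66.0 CPM in WT control chow and 28.8 to 35.2 CPM in WT control FFD, and to 35.8 to 55.2 CPM and 32.6 to 41.1 CPM in Slc-HKO. In WT control livers Ptprc of the lymphocyte list was called higher (0.60, adjusted p = 0.00367) and Sox9 of the cholangiocyte list lower (-1.71, adjusted p = 0.000511). In Slc-HKO livers Sox9 was called lower (-1.04, adjusted p = 0.00823), and 0 lymphocyte markers passed. In each of these lists 5 of the 6 genes were tested. The part of these differences in those of the ribosomal protein genes was not tested.

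In WT control livers the called genes were Mrpl14 and Mrpl42, both of the large subunit. Mrpl14, the counterpart of a bacterial protein at the face between the subunits, stood at 41.6, 40.2 and 39.6 CPM on chow and 51.2, 51.9 and 45.5 CPM on FFD. Every FFD library was above every chow library, and the log2 difference was 0.29 (SE 0.0768, adjusted p = 0.0242 by edgeR). Mrpl42, a protein found in mitochondrial ribosomes, stood at 25.1, 24.0 and 25 CPM on chow and 30.4, 32.4 and 30.6 CPM on FFD. The groups did not overlap, and the log2 difference was 0.33 (SE 0.0914, adjusted p = 0.0284 by edgeR).
Both calls were lost in several fits that left out libraries, which also leave fewer mice per group. Without WT control chow replicate 3 and WT control FFD replicate 2, in which acute phase genes were raised, 1 gene passed, and neither of these did (adjusted p = 0.153 for Mrpl14 and 0.131 for Mrpl42 by edgeR). The Mrpl14 call was lost without WT control chow replicate 2 or 3 or WT control FFD replicate 1 or 2 (adjusted p from 0.0718 to 0.0851). The Mrpl42 call was lost without any 1 of the 6 WT control libraries (adjusted p from 0.0513 to 0.0968). Just outside the threshold were Mrps18a (0.29, adjusted p = 0.0501), Mrpl20 (-0.26, adjusted p = 0.0512), Mrpl44 (0.38, adjusted p = 0.0583) and Mrps21 (0.29, adjusted p = 0.069), as log2 differences by edgeR.

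In Slc-HKO livers the largest difference was that of Mrpl45. It stood at 14.4, 17.9 and 20.7 CPM on chow and 31.3, 29.8 and 26 CPM on FFD. The FFD libraries were all higher, 1.64-fold on average (log2 difference 0.71, SE 0.117, adjusted p = 0.00238 by edgeR). The Mrpl45 promoter is the one with 3 NRF1 matches, and their part in this difference was not tested. Mrpl1, the counterpart of the bacterial protein of the L1 stalk, stood at 18.2, 18.4 and 19.2 CPM on chow and 22.3, 25.4 and 24.6 CPM on FFD. It was higher in every FFD library, by 0.37 on the log2 scale (SE 0.0805, adjusted p = 0.0101 by edgeR).
Mrps22, a small-subunit protein found only in mitochondria, stood at 16.7, 16.4 and 18.5 CPM on chow and 11.2, 13.0 and 14.4 CPM on FFD. All FFD libraries were lower, and the log2 difference was -0.41 (SE 0.11, adjusted p = 0.028 by edgeR). Mrps10, the counterpart of a bacterial small-subunit protein, stood at 37.1, 31.8 and 36.4 CPM on chow and 26.5, 27.3 and 30.9 CPM on FFD. The highest FFD library was just under the lowest chow library, and the log2 difference was -0.31 (SE 0.0875, adjusted p = 0.0335 by edgeR).
Mrpl20, whose bacterial counterpart helps assemble the large subunit, stood at 42.4, 37.8 and 40.5 CPM on chow and 31.6, 33.2 and 34.3 CPM on FFD. The groups did not overlap, and the log2 difference was -0.28 (SE 0.0818, adjusted p = 0.0378 by edgeR).
The calls of Mrpl45 and Mrpl1 held in all 12 fits that left out 1 library. Those of Mrps22 and Mrps10 were lost without Slc-HKO chow replicate 1 or 3 or Slc-HKO FFD replicate 1 or 2, with adjusted p from 0.0584 to 0.108 for Mrps22 and from 0.113 to 0.127 for Mrps10. The Mrpl20 call was lost without those 4 libraries, Slc-HKO FFD replicate 3 or WT control FFD replicate 3 (adjusted p from 0.0516 to 0.13).

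**Figure D4:**
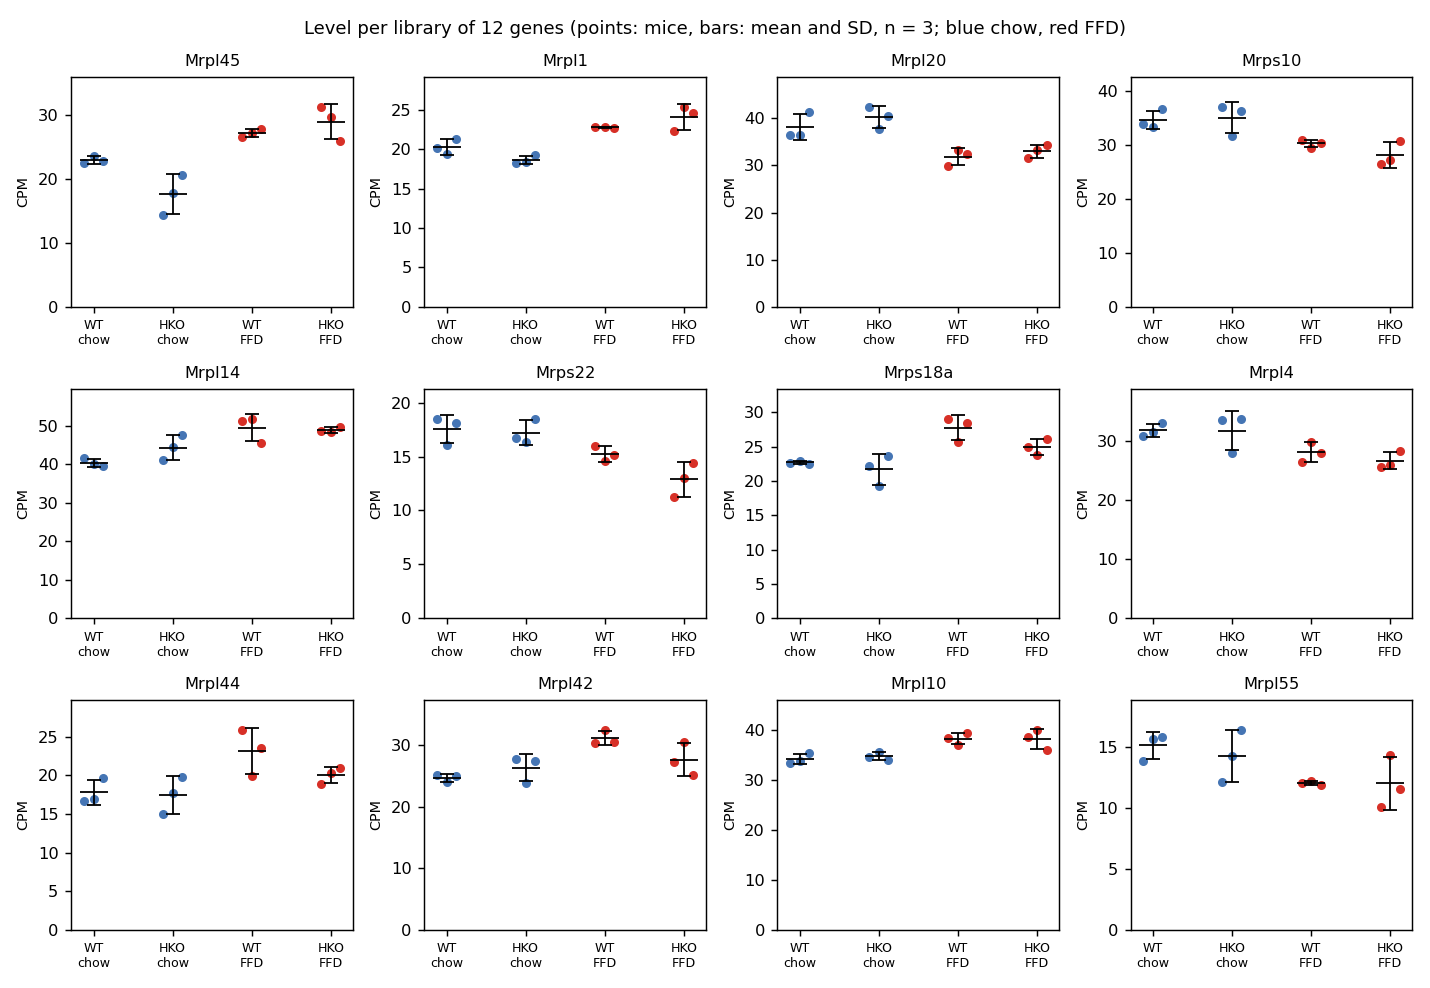
CPM per library (vertical axis from 0) of the 12 genes called for diet over both genotypes, with points for mice and bars for mean and SD (n = 3); HKO stands for Slc-HKO. Mrpl45 shows the widest gap in Slc-HKO livers, from 17.7 ± 3.15 CPM on chow to 29.0 ± 2.73 CPM on FFD.

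With both genotypes averaged, a comparison added after the data were seen, 12 of 77 passed for diet, where 26.8% of all genes passed (13.9% higher and 12.9% lower), and 25 had an unadjusted p under 0.05, against 38.6% of all genes. The 7 higher on FFD were Mrpl45, Mrpl1, Mrpl14, Mrps18a, Mrpl44, Mrpl42 and Mrpl10, all large-subunit proteins. The 5 lower were Mrpl20, Mrpl4 and Mrpl55 of the large subunit and Mrps10 and Mrps22 of the small one. Large-subunit genes were most of those tested. Of 50 tested, 10 were called, and of 26 small-subunit genes 2 were. The split by subunit was not tested. All 12 had the same sign in each genotype, which choosing genes by the average of both genotypes favours. Over all 77 genes, the 6 FFD libraries lay wholly above the 6 chow libraries in 4 (Mrpl45, Mrpl1, Mrps18a and Mrpl10) and wholly below in 3 (Mrpl20, Mrps10 and Mrps22). That is 9.09% of the genes, where 11.3% of all genes tested did not overlap (6.57% above and 4.78% below).
Mrps18a stood at 22.6, 23.0 and 22.5 CPM in WT control chow, 22.2, 19.2 and 23.6 CPM in Slc-HKO chow, 29.1, 25.7 and 28.4 CPM in WT control FFD and 24.9, 23.8 and 26.1 CPM in Slc-HKO FFD. The FFD libraries were higher throughout, by 0.25 on the log2 scale (SE 0.0645, adjusted p = 0.013 by edgeR). Among the called genes the averaged differences reached 0.48 for Mrpl45 (adjusted p = 0.00115) and -0.31 for Mrps22 (adjusted p = 0.0111). Mrps6, which did not pass, stood at -0.35 (adjusted p = 0.0803). Mrpl44, which has an RNase III fold, differed by 0.29 (adjusted p = 0.0288), Mrpl10, which anchors the stalk, by 0.15 (adjusted p = 0.0402), and Mrpl4 by -0.22 (adjusted p = 0.0262), all by edgeR.
The calls of Mrpl44, Mrpl42, Mrpl10, Mrpl4 and Mrpl55 were each lost under 7 to 12 of 21 alternatives, and the count was 7 without WT control FFD replicate 3.

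**Figure D5:**
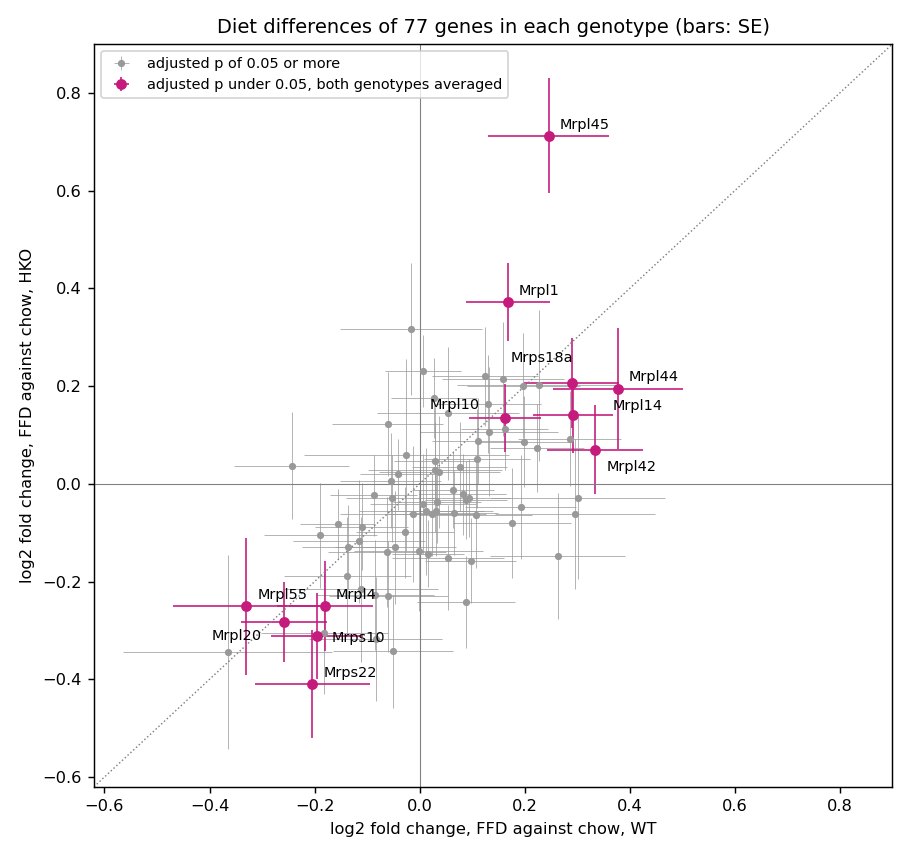
Log2 fold change of FFD against chow in WT control (horizontal) and Slc-HKO livers (vertical, HKO in the plot) for 77 genes, with SE bars; the dotted line marks equal values. The 12 coloured genes fall in the upper right or lower left, which choosing them by the average of both genotypes favours. Mrpl45 lies above the line at 0.25 and 0.71.

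The diet differences of WT control and Slc-HKO livers share no library. Across the 77 genes they had a Pearson correlation of 0.61 and the same sign in 51 (66.2%), beside 0.57 and 70.9% over all genes tested, as descriptions over genes that are not independent. The genotype differences on chow and on FFD had a correlation of -0.10 and the same sign in 46.8%, beside 0.08 and 53.2% over all genes tested.
Whether diet acted differently in the genotypes was tested directly. The interaction passed in 0 of 77 genes by edgeR, where 0% of all genes passed, and 4 genes had an unadjusted p under 0.05, against 9.06% of all genes. DESeq2 and limma-voom called 0. The smallest p was that of Mrpl45, whose diet difference was 0.47 higher in Slc-HKO on the log2 scale (SE 0.164, 95% interval 0.11 to 0.82, adjusted p = 0.421). The interval lay within 1.5-fold for 65 genes (84.4%), against 39.3% of all genes, 92.4% of cytosolic ribosomal proteins and 91.2% of respiratory chain and ATP synthase subunits.

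Genes that act with the mitochondrial ribosome were counted by list. Of 16 tested translation factors, Tufm, the elongation factor that delivers aminoacyl-tRNA, and Gfm2 and Mrrf, which recycle ribosomes, rose on FFD in WT control livers, by 0.32, 0.31 and 0.35 on the log2 scale (adjusted p = 0.0102, 0.0224 and 0.0337 by edgeR), and 0 fell. These are 18.8% of the list, where 14.9% of all genes were called. In Slc-HKO livers Tufm rose by 0.23 (adjusted p = 0.0473) and 0 fell, which is 6.25%, where 13.6% of all genes were called. Averaged over genotypes, 3 were higher and 2 lower (31.2%, where 26.8% of all genes were called), the latter being Mtfmt, which formylates the initiator tRNA (-0.34, adjusted p = 0.0127), and Metap1d (-0.16, adjusted p = 0.0387).
Of 27 assembly factors, 0 passed in WT control livers and Mterf4, which acts in assembly of the large subunit, was higher in Slc-HKO livers (0.48, adjusted p = 0.045 by edgeR). Averaged over genotypes, 0 assembly factors were higher and 2 were lower, Mettl17 (-0.26, adjusted p = 0.0222) and Mrm1, which methylates the large ribosomal RNA (-0.45, adjusted p = 0.0368). The called shares of this list were 3.7% in Slc-HKO and 7.41% in the average, where 13.6% and 26.8% of all genes were called. Of 18 genes of mitochondrial DNA and transcription, Pnpt1, an RNA-degrading enzyme, passed in WT control livers (0.42, adjusted p = 0.025), and Polg, the mitochondrial DNA polymerase (0.30, adjusted p = 0.0242), and Tfb2m, a transcription factor of mitochondria (0.33, adjusted p = 0.0246), passed in Slc-HKO livers, with 0 lower in either. In the average 4 were higher and 0 lower, Polg (0.24, adjusted p = 0.00683), Pnpt1 (0.30, adjusted p = 0.0142), Tefm, an elongation factor of mitochondrial transcription (0.41, adjusted p = 0.0241), and Supv3l1, an RNA helicase (0.31, adjusted p = 0.0262). Mean Tfb2m was 31.3 CPM on chow and 28.9 CPM on FFD in WT control, and 27.8 and 35.1 CPM in Slc-HKO. The called shares of these 18 genes were 5.56% in WT control, 11.1% in Slc-HKO and 22.2% in the average. Over all genes they were higher, at 14.9%, 13.6% and 26.8%.
Of 5 proteins of the mitochondrial ribosome that carry other names, 0 passed in either genotype and Gadd45gip1 was lower in the average (-0.22, adjusted p = 0.0333 by edgeR). Of 13 mitochondrially encoded mRNAs, 0 passed in either genotype and mt-Nd3, which encodes a complex I subunit, was lower in the average (-0.30, adjusted p = 0.0369). That is 7.69% of the list, where 26.8% of all genes were called. The mean level of mt-Nd3 was only 48.8 RPKM, against 5278 RPKM for mt-Nd1 and 10377 RPKM for mt-Co1. Similarly low were mt-Co2, mt-Co3 and mt-Atp6, at 32.3, 40.6 and 45.4 RPKM. Whether such counts measure these mRNAs was not tested.
Of 9 regulators, Gabpa, the ETS factor, was higher in Slc-HKO livers on FFD (0.47, SE 0.0882, adjusted p = 0.00487) and 0 passed in WT control. Averaged over genotypes, Gabpa was higher (0.24, adjusted p = 0.0118 by edgeR), but the difference lay in Slc-HKO. Mean Gabpa was 56.8 CPM on chow and 57.4 CPM on FFD in WT control, and 47.3 and 65.5 CPM in Slc-HKO. In the average Ppargc1a, a coactivator of mitochondrial genes, was lower (-0.57, adjusted p = 0.0267), as was Pprc1 (-0.35, adjusted p = 0.0403), by edgeR. The called shares of the 9 regulators were 11.1% in Slc-HKO and 33.3% in the average, where 13.6% and 26.8% of all genes were called. Of the 2 mitochondrial ribosomal RNAs, mt-Rnr1 was lower on FFD in that average (-0.31, adjusted p = 0.0303), and mt-Rnr2 was at -0.26 (adjusted p = 0.152), by edgeR. That is 50% of the list, where 26.8% of all genes were called. The chow and FFD libraries of mt-Rnr1 overlapped in each genotype. Mean levels of mt-Rnr1 and mt-Rnr2 were 703 and 659 RPKM, against 10377 RPKM for mt-Co1. Whether such counts measure these RNAs was not tested. For genotype, 0 of the 90 tested genes in these 7 lists passed on either diet by edgeR, and 10 on chow and 11 on FFD had an unadjusted p under 0.05. Over all genes 0.021% passed on chow and 0.007% on FFD, and 11.8% and 9.34% had an unadjusted p under 0.05.
In single genotypes Gfm2, Mrrf, Pnpt1, Polg and Tfb2m, Mterf4 and the Slc-HKO call of Tufm were each lost in 4 or more of the fits that left out 1 library (adjusted p from 0.0513 to 0.165 where lost), while the WT control call of Tufm and the Slc-HKO call of Gabpa held in all 22 alternatives. In the average Tufm, Gfm2, Mtfmt, Polg, Pnpt1 and Gabpa held in all 21 alternatives, and each other call was lost in 3 to 13 of them (adjusted p from 0.05 to 0.244 where lost).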

How the data were processed

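The authors deposited raw read counts per gene for 12 libraries. STAR, featureCounts 1.5.0-p3 and build mm10 are named, per the submitters' processing notes; the STAR version, strand setting and annotation release are not given in the sources used here. Members and gene lists were chosen with earlier results of these data known. Counts were fitted with edgeR 4.0.16 (R 4.3.3), keeping 14277 genes by filterByExpr, with TMM scaling, 1 mean per group, the quasi-likelihood test and Benjamini-Hochberg adjustment over all genes tested, at a threshold of 0.05. The steps were tested on simulated counts. Levels are TMM-scaled CPM, and RPKM divides these by the deposited length. Total counts were 12842187 to 24332663 per library, which sets the counting precision. No 2 libraries of a group were alike within sampling noise (chi-square per degree of freedom 9.47 to 41.7). Alternatives were other scalings and filters, DESeq2 1.42.0, limma-voom 3.58.1, a replicate block, only the groups compared, and leaving out libraries. Named genes were all that passed per comparison, others by smallest p up to 6, and the 4 highest and lowest levels; other names were chosen after their values were seen. The neighbours and exon overlaps come from GENCODE M21.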

Additional observations from a re-analysis of the deposited data

How the results depend on the processing

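The counts for genotype on each diet and for the interaction stayed at 0 members in every alternative. No difference of a single gene followed through the alternatives was found reversed. The members called for diet in WT control livers (2) became 4 with RLE size factors, 4 with a filter of 1 CPM in at least 3 libraries, 5 with DESeq2, 0 with no filter on low counts, 1 with only the groups compared and 1 when both libraries high in acute phase genes were dropped (WT control chow replicate 3 and WT control FFD replicate 2), and ranged from 0 to 4 when 1 library was left out. Those in Slc-HKO livers (5) became 2 with no filter and 2 with only the groups compared, and ranged from 2 to 6. With genotypes averaged, the 12 ranged from 7 to 12 on leaving out 1 library and from 8 to 13 otherwise, and the genotype count over both diets from 0 to 1. The median log2 difference for genotype on chow ranged from -0.029 to 0.041, so it took either sign. For Slc25a34 the adjusted p on chow was 0.0588 with limma-voom, 0.052 with the replicate block and 0.00749 to 0.231 on leaving out 1 library; on FFD it was 5.05e-07 with no filter and 4.09e-06 with DESeq2. The cause was not tested.

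After removing group means, same-numbered mice had correlations from -0.114 to 0.117 over 18 pairs. Mice of different numbers had correlations from -0.123 to 0.130 over 36 pairs. Litters and injection days are not given, so this cannot show whether the numbers pair mice. The replicate block left 2 and 5 members called for diet, and 10 with genotypes averaged. Depth and 3 mice a group gave members a median SE of 0.10 on the log2 scale in each comparison of 2 groups; the smallest difference called there was 0.28, and Mrpl44 at 0.38 was not called.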
